A study of Mus musculus with 12 samples.

Results

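The genes described here encode the proteins of the cytosolic ribosome. They were taken by name from the array's probe table, as gene symbols that start with Rpl or Rps followed by a digit, a or p, without pseudogenes, S6 kinases and Rpap genes. The pattern matched 78 symbols, and 76 of them are ribosomal proteins or close paralogues of one. Rps19bp1 and Rps23rg1 match the pattern but encode no ribosomal protein, and they were left out. A gene was kept when a probe had a detection p-value under 0.01 on at least 2 arrays, and its brightest probe was used. That left 72 ribosomal protein genes of 11766 features tested, of which 8592 carry a gene name. They comprised 41 proteins of the large subunit, 24 of the small subunit, the 3 stalk proteins and 4 paralogues. The rule uses names and detection and no expression difference, but it was set with earlier results of these data known. Rpsa and Rps19, both small subunit proteins, and the paralogues Rpl3l and Rpl39l had probes but were not detected on any array, so they are not described further. Rps19bp1 passed the detection filter and was called in no comparison, with a smallest adjusted p of 0.0766 in limma.

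Pituitaries came from wild-type mice and from mice with a knockout of Crhr1, the receptor for corticotropin-releasing hormone. Every mouse, controls included, was injected with metyrapone, which blocks corticosterone synthesis, at 150 mg/kg 12 h and again at 100 mg/kg directly before the time of stress, and blood was drawn from the orbital sinus after the later injection. Wild-type and knockout mice were each studied as controls, and at 1 h and 3 h counted from the beginning of 30 min of restraint, which gives 6 groups. Each group was hybridised on 2 bead arrays, which the titles call technical replicates of pooled, amplified RNA, so errors and p-values measure the spread between arrays and not between mice. The design text's 2 per group could also count pools. Age, sex, strain, the kind of knockout allele and the number of mice per pool are not given in the sources used here. For the knockout control and knockout 3 h arrays the titles were followed, although their source label gives 1 h as the time of death.

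Between 6119 and 13506 of 46147 probes were detected per array, and duplicate arrays correlated at 0.926 to 0.981 over all features. The fewest probes were detected on replicate 2 of the knockout 3 h group, and that group had the lowest duplicate correlation. All replicate 1 arrays lay on 1 slide and all replicate 2 arrays on the other, in the same order, so the slide equals the replicate number. A group held 1 position on both slides, and the effects of position and group cannot be told apart. Of 3 Crhr1 probes, 1 was detected on 4 of 6 wild-type and 0 of 6 knockout arrays, another on 1 array of each genotype and the remaining one on 0 arrays, so they check the genotype labels only weakly. Of 10 hormone cell markers, 8 were detected, with a summed log2 level of 17.73 to 17.85 on every array, but Pou1f1, a factor of the somatotrope and lactotrope lineages, was not detected under either of its listed symbols.

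Ribosomal proteins assemble with ribosomal RNA into a small subunit, which reads the messenger RNA, and a large subunit, which joins amino acids. A stalk of acidic proteins on the large subunit recruits the elongation factors. Their messenger RNAs typically begin with a terminal oligopyrimidine tract, a C followed by a run of C and T, through which their translation follows the mTOR pathway, and their transcription is otherwise steady in most tissues. Endocrine cells such as those of the pituitary make much secreted protein and carry many ribosomes.

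Promoter windows are shown because the tract that marks the family lies at the start of the transcript. RefSeq windows on GRCm38.p6, 250 bases before to 50 after the annotated start, were held for 58 of the 72 genes. A run of at least 8 C or T that starts with C within 20 bases of the start, on the sense strand, stood in 31 of these 58 genes (53.4%), against 16.6% of all genes with such a window. The same search on the other strand found it in 8.62% of the ribosomal protein genes and 19% of all genes. The letters CCGGAAG, an ETS-type motif searched on either strand of the 300 bases, stood in 41.4% of the ribosomal protein genes and 9.93% of all genes. A match is a description of letters, not a site. Windows from 40 bases before to 30 bases after the start are given for the genes that passed a test below and had an entry, and for Rps6, the substrate of the S6 kinases. Capitals mark the pyrimidine run and the motif CCGGAAG, and both are written 5′ to 3′ on the strand of the gene.
Rpl11, chr4:136053364-136053433, minus strand: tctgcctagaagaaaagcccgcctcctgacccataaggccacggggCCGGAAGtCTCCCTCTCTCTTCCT
Rpl13a, chr7:45128716-45128785, minus strand: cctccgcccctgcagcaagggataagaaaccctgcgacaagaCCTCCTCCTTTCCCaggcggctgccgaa
Rpl31, chr1:39367811-39367880, plus strand: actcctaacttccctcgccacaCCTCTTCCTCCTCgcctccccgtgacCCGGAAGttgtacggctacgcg
Rps15a, chr7:118116118-118116187, minus strand: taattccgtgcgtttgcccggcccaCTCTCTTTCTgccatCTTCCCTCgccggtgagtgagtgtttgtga
Rps6, chr4:86857338-86857407, minus strand: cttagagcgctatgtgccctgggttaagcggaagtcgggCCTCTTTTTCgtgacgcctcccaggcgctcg
All 5 genes hold a run near the start. In the windows printed, Rpl11 and Rpl31 also show the ETS-type motif, beside or downstream of the run.

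Most ribosomal protein genes varied little across the 6 groups. The span between the highest and lowest group mean had a median of 0.42 on the log2 scale over the 72 genes, against 0.71 over all features, and stayed under 0.5 in 62.5% of them, against 23.9% of all features. The steadiest was Rps25, a small subunit protein named here after its values were seen, with a span of 0.14. The widest spans belonged to the paralogue Rpl22l1 at 2.12, to Rpl29 at 2.12 and to Rpl30 at 1.53. Duplicate arrays of a group differed by a median of 0.15 in these genes and by 0.23 over all features. Of the 72 genes, 64 were detected on all 12 arrays, and the dimmer ones, among them Rpl29, Rps15a, Rplp0, Rpl14 and Rpl36al, were detected on fewer. The heat map of all 72 genes shows a few strongly coloured rows among pale ones.

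**Figure D1:**
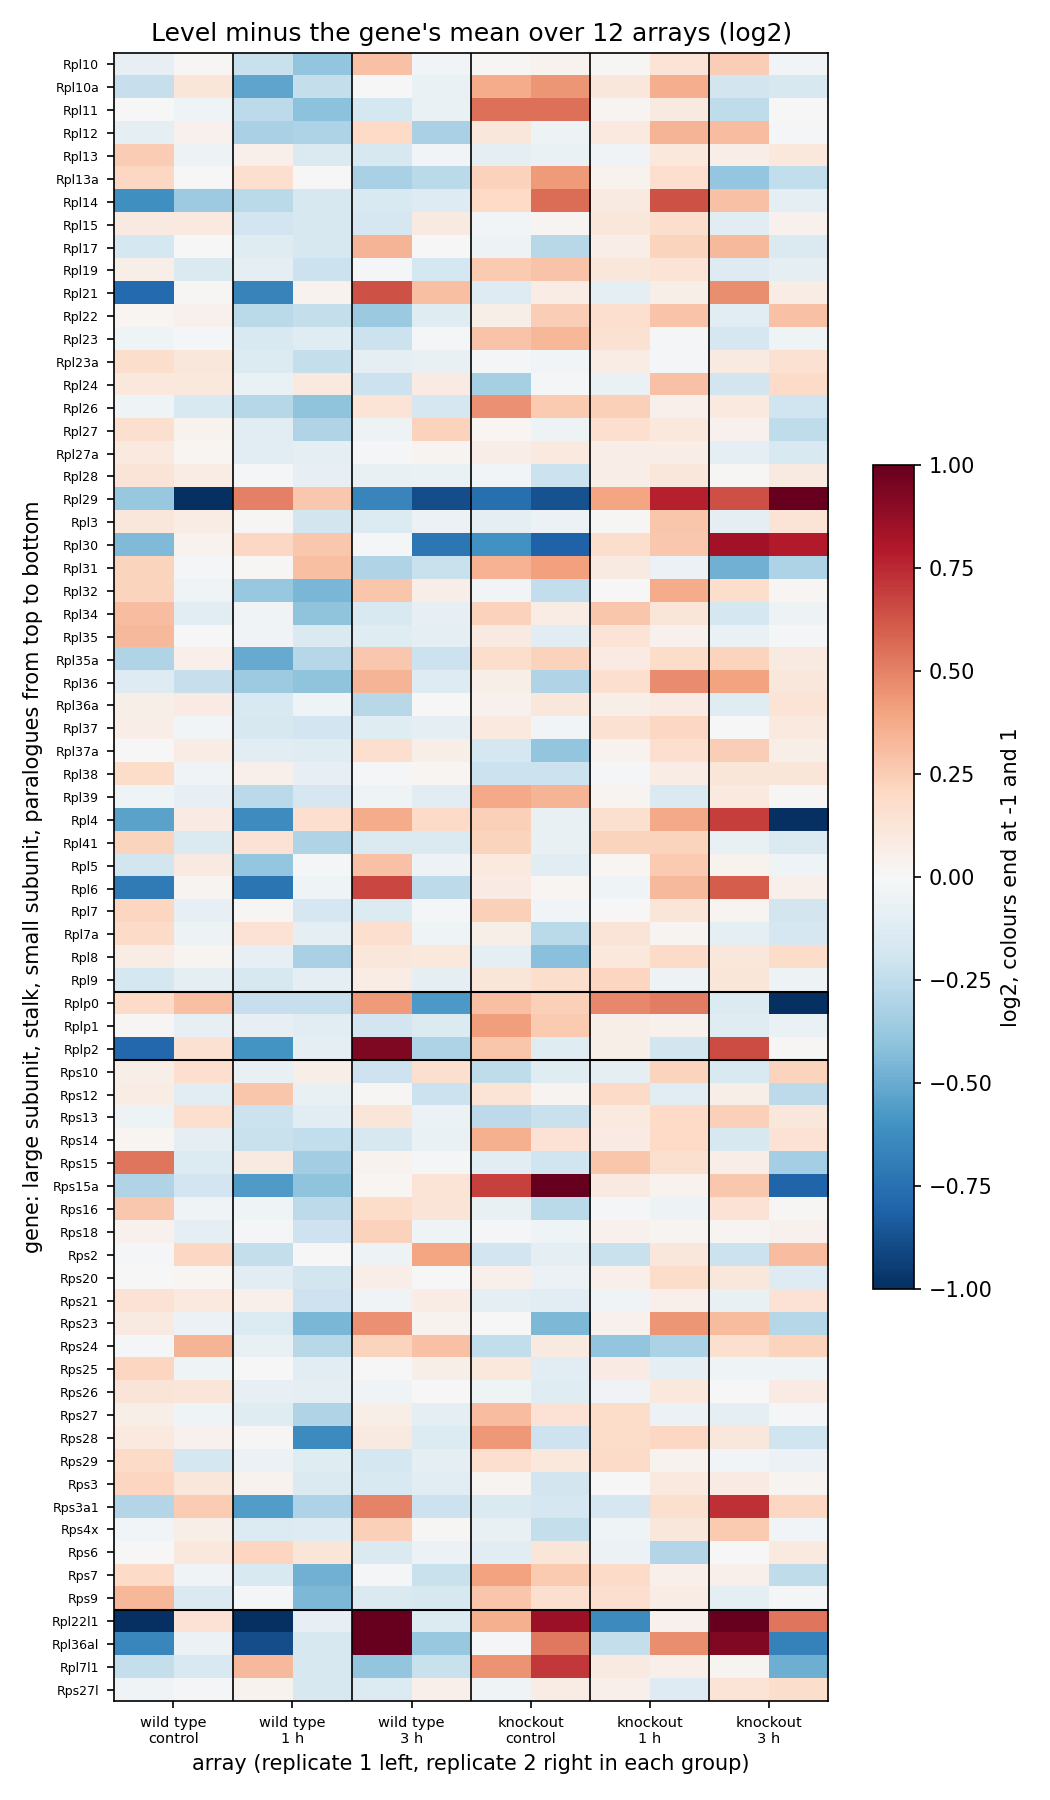
Log2 level of each of the 72 ribosomal protein genes (rows) on each of the 12 arrays (columns), minus the gene's mean over the 12 arrays, with colours ending at -1 and 1. Most rows are pale, while Rpl29, Rpl30, Rps15a, Rpl22l1, Rpl36al, Rplp2 and a few others carry strong colours, in some of them on only 1 array of a group.

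The genes did not move as 1 block. The correlation of a gene with the median of the other 71, over the 6 group means, had a median of 0.26, exceeded 0.5 in 24 genes and fell below 0 in 21. It ran from -0.40 for Rpl11 to 0.94 for Rpl28, a large subunit protein named after its values were seen. The points share arrays and normalization, and 6 points fix such a value only loosely.

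At 1 h from the start of restraint, wild-type pituitaries had slightly lower ribosomal protein messages than wild-type controls. The median log2 normalized intensity of the 72 genes was 12.70 and 12.62 on the wild-type control arrays and 12.52 and 12.36 on the 1 h arrays, so both 1 h arrays lay below both controls. The difference was negative in 63 of 72 genes, with a median of -0.17 on the log2 scale, a fold of 1.13, while the median over all features was -0.01. That count takes the brightest probe of each gene. In most of the 18 genes with several detected probes, another probe had the opposite sign, so their sign depends on the probe. The disagreements ran both ways. The chosen and second probes differed by -0.11 and 0.17 for Rpl23, and by 0.11 and -0.28 for Rps12. The median difference was about as large in each subunit, at -0.15 over the 41 large subunit genes and -0.22 over the 24 small subunit genes. On slide 1 the median was -0.19 and on slide 2 -0.17, and 57 of 72 genes were lower on both slides. Both 1 h arrays lay below both control arrays in 38 of 72 genes, against 19.8% of all features that separated in that direction. No single gene passed the threshold of an adjusted p under 0.05 and a 1.5-fold difference, beside 0.0680% of all features, in limma with Benjamini-Hochberg adjustment. At an unadjusted p under 0.05, 1 gene was higher and 2 were lower, against 405 and 256 of all 11766 features.

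Among other features with a mean level above 10, 1070 in number, the median difference was -0.01, against -0.17 in the 60 ribosomal protein genes above that level. These other features as a whole did not share the shift. They were not matched in level to the ribosomal protein genes, so equally bright features were not compared. Fewer cells of a type and less RNA per cell cannot be told apart in such bulk tissue. Red cell markers, 5 of 7 detected with Hbb-b1 and Slc4a1 not detected, were lower in the same arrays. Their summed log2 level was 12.93 to 12.94 in wild-type controls and 12.26 to 12.35 at 1 h. Macrophage markers, 7 of 9 detected with Cd68 and Csf1r not detected, were at 10.29 to 10.41 in controls and 10.14 to 10.16 at 1 h. Of the single genes, 1 of 5 red cell and 3 of 7 macrophage markers were higher at 1 h, against their sums. Other lists were higher at 1 h without overlap. Folliculostellate and stem cell markers, 3 of 6 detected without S100b, Aldoc and Fxyd1, were at 10.48 to 10.53 in controls and 11.14 to 11.20 at 1 h. Of these 3 genes, 2 were higher at 1 h. The only lymphocyte marker detected of 7, Cd79b, was at 6.78 to 6.81 and 7.03 to 7.09. Endothelial, fibroblast and hormone cell lists overlapped between these groups. The part of these cells in the result was not tested.

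Rpl32, a large subunit protein, had the most negative difference at 1 h in wild type. It measured 12.29 and 12.03 in controls and 11.69 and 11.61 at 1 h, a difference of -0.51 ± 0.19 (SE, n = 2 arrays per group; adjusted p = 0.743). The groups did not overlap, but the difference did not pass the test. Rplp0, the stalk base that carries the P1 and P2 proteins, followed with -0.48 ± 0.38, and the paralogue Rpl22l1 with -0.43 ± 0.80. On the positive side stood Rpl29, Rpl30 and Rpl7l1. Second, dimmer probes of Rplp0 and Rpl30 had the opposite signs, at 0.48 ± 0.43 and -0.09 ± 0.58 (SE). That of Rplp0 was detected on only 3 arrays. Rpl29, a large subunit protein that mice can live without, was not detected in wild-type controls at 5.95 and 5.33 and measured 6.84 and 6.61 at 1 h, at least 1.42-fold higher (adjusted p = 0.713).

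In knockout pituitaries the same comparison had the opposite sign under quantile normalization and a median near 0, at -0.01, under median centring. The array medians were 12.56 and 12.51 in knockout controls and 12.71 and 12.75 at 1 h, so both 1 h arrays lay above both controls. The difference was positive in 43 of 72 genes with a median of 0.08, against -0.03 over all features. On slide 1 the median was 0.01 and on slide 2 it was 0.14, so the upward shift was nearly absent on slide 1. No gene passed the test, beside 0.229% of all features. At an unadjusted p under 0.05, 5 genes were higher and 4 were lower, against 835 and 700 of all 11766 features. Among the 4 lower genes were Rpl11 at -0.50 ± 0.15 and Rpl39 at -0.42 ± 0.14.

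At 1 h most ribosomal protein genes were higher in knockout than in wild type. Knockout exceeded wild type in 66 of 72 genes, with a median of 0.27 on the log2 scale, a fold of 1.20, against a median of 0.00 over all features. The difference was positive in 39 of 41 large subunit genes, 21 of 24 small subunit genes and all 3 stalk genes. Both knockout arrays lay above both wild-type arrays in 45 of 72 genes, against 25.8% of all features, and 54 genes were higher in knockout on both slides. The slide medians were 0.19 and 0.26. No gene passed the test, beside 0.790% of all features (93 features, or 219 with the slide as a replicate block). At an unadjusted p under 0.05, 12 genes were higher and 0 lower, against 778 and 1111 of all 11766 features. This comparison uses the same wild-type 1 h arrays as the one before, so the pair is not independent.

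**Figure D2:**
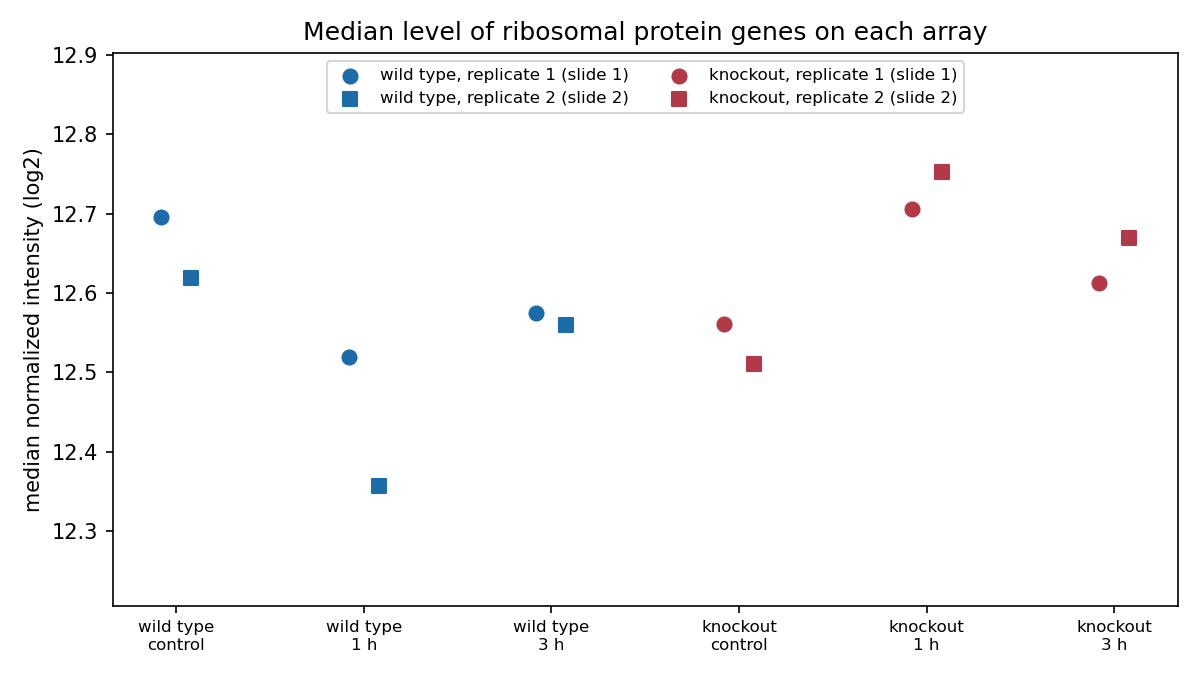
Median log2 normalized intensity of the 72 ribosomal protein genes on each array, by group, with circles for replicate 1 and squares for replicate 2. The axis does not start at 0. The wild-type 1 h arrays, at 12.52 and 12.36, lie below both wild-type controls, and the knockout 1 h arrays, at 12.71 and 12.75, lie above all other arrays.

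Among the 60 bright ribosomal protein genes the knockout minus wild-type median at 1 h was 0.25, with 57 positive, and among the 1070 other bright features it was 0.00. Macrophage markers had a summed log2 level of 10.14 to 10.16 in wild type and 10.87 to 11.18 in knockout at 1 h. Red cell markers stood at 12.90 to 13.07 in knockout at 1 h, against 12.26 to 12.35 in wild type, and fibroblast markers, 5 of 6 detected without Col1a2, at 11.53 to 11.66 against 11.37 to 11.41. Hormone cell markers were at 17.82 to 17.84 against 17.73 to 17.80. Lower in knockout were folliculostellate and stem cell markers, at 10.43 to 10.44 against 11.14 to 11.20, and Cd79b, at 5.96 to 6.42 against 7.03 to 7.09. Endothelial markers overlapped. The part of these cells in the genotype difference was not tested.

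Rpl22l1, Rplp0 and Rpl36 had the largest positive differences between the genotypes at 1 h, and Rps6, Rps24 and Rpl31 the most negative, with Rpl36 and Rps24 named after their values were seen. Rpl36, a large subunit protein, differed by 0.70 ± 0.22 (SE; adjusted p = 0.155), and Rplp0 by 0.72 ± 0.38. A second, dimmer Rplp0 probe, detected on only 3 arrays, differed by -0.02 ± 0.43. Rps6 measured 12.59 and 12.49 in wild type and 12.32 and 12.08 in knockout at 1 h, a difference of -0.34 ± 0.16 (adjusted p = 0.335). By this probe it ran against most of the family, with no overlap of its arrays and no pass of the test. A second, dimmer Rps6 probe had the opposite sign, at 0.97 ± 0.63 (SE), so the direction for Rps6 depends on the probe.

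The difference between the genotypes' responses was tested itself. At 1 h this interaction had a median of 0.27 over the 72 genes, positive in 55, against -0.02 over all features. None passed the threshold in limma, beside 0.0510% of all features. At an unadjusted p under 0.05, 4 were positive and 1 negative, against 617 and 585 of all 11766 features. Rpl32 had the largest value, 0.83 ± 0.26 (SE; adjusted p = 0.368), followed by the small subunit proteins Rps23 at 0.78 ± 0.39 and Rps15 at 0.70 ± 0.35.

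Other messages with a terminal oligopyrimidine tract, such as elongation factors, had the same signs at 1 h. Over 15 such genes measured, the median was -0.13 in wild type, 0.26 in knockout and 0.45 between knockout and wild type at 1 h, and 0 of 15 passed the test in each. Genes of ribosome biogenesis, 26 measured, had 1 h medians of -0.17 (wild type) and -0.13 (knockout), so the sign did not differ between genotypes there. The 71 mitochondrial ribosomal protein genes had medians of -0.10 in both genotypes. None of either list passed the test at 1 h.

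At 3 h the wild-type arrays had medians of 12.58 and 12.56, between the 1 h and the control arrays. The difference from controls was positive in 27 of 72 genes with a median of -0.05 (0.03 under median centring), against -0.02 over all features, and no gene passed the test, beside 0.229% of all features. At an unadjusted p under 0.05, 1 was higher and 1 lower, against 670 and 736 of all 11766 features. Rpl22l1 had the largest difference, 1.33 ± 0.80 (SE), but its wild-type 3 h arrays read 9.41 and 7.94 and its controls 6.47 and 8.21, so the groups overlapped. Rpl21, a large subunit protein, measured 12.73 and 12.40 against 11.32 and 12.11 in controls, a difference of 0.85 ± 0.31 (adjusted p = 0.332). Here the arrays did not overlap, although the controls lay far apart. A second, dimmer Rpl21 probe had the opposite sign, at -0.42 ± 0.50 (SE). The most negative was Rpl13a, a large subunit protein also known from interferon-gamma-induced translational silencing, at -0.40 ± 0.16.

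In the knockout, 3 h after the start of restraint, 2 ribosomal protein genes rose and 4 fell relative to knockout controls. These 6 of 72 genes stood beside 10.6% of all features, so the family was called no more often than the rest of the array. The median over the 72 genes was 0.00, with 36 positive, against -0.11 over all features. At an unadjusted p under 0.05, 6 genes were higher and 12 lower, against 1297 and 2159 of all 11766 features. Without replicate 2 of the knockout 3 h group, the array with the fewest probes detected, 4 genes were called, and without either knockout control array none was.

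Rpl30, a large subunit protein that also binds selenocysteine insertion elements in mammals, rose. It measured 11.94 and 11.74 in knockout controls, 12.72 and 12.82 at 1 h and 13.39 and 13.34 at 3 h, a difference at 3 h of 1.53 ± 0.25 (SE, n = 2 arrays per group; adjusted p = 0.0112). The knockout levels of the 3 treatments did not overlap. At 1 h the difference was 0.93 ± 0.25 and did not pass (adjusted p = 0.187). In wild type Rpl30 read 12.11 and 12.59 in controls, 12.75 and 12.82 at 1 h and 12.53 and 11.82 at 3 h, where controls and 3 h overlapped. A second, dimmer Rpl30 probe differed by 0.49 at 3 h in knockout with an unadjusted p of 0.421 in limma. The mean of both probes did not pass (adjusted p = 0.123), so the call rests on the brighter probe.

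Rpl29 was not detected in knockout controls, at 5.58 and 5.47, and reached 6.73 and 7.11 at 1 h and 6.98 and 8.31 at 3 h. It was at least 2.63-fold higher at 3 h (fitted difference 2.12 ± 0.39; adjusted p = 0.0156). The 3 h arrays lay 1.32 apart, yet both exceeded every control, and without replicate 2 the difference was 1.46 (adjusted p = 0.0314). In wild type Rpl29 was not detected at 3 h, at 5.67 and 5.45, and the knockout was at least 2.99-fold higher there (adjusted p = 0.0360). That made Rpl29 the 1 gene of 72 called between the genotypes at 3 h, beside 1.73% of all features. Without replicate 2 of the knockout 3 h group this genotype call was lost, with a difference of 1.42 and an adjusted p of 0.0878, and it held in 6 of 21 alternatives run, whose adjusted p ran from 0.00180 to 0.604.

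Rpl11, which with Rpl5 and 5S RNA binds the p53 regulator Mdm2, fell. It read 13.32 and 13.32 in knockout controls, 12.79 and 12.86 at 1 h and 12.52 and 12.77 at 3 h, a difference at 3 h of -0.68 ± 0.15 (SE; adjusted p = 0.0263). Wild-type controls read 12.77 and 12.73, so the knockout control arrays stood above all other arrays for this gene. Its partner Rpl5 differed by 0.01 at 3 h in knockout.

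Rpl31, a protein near the exit of the peptide tunnel, fell from 9.13 and 9.20 to 8.30 and 8.48, by -0.78 ± 0.17 (SE; adjusted p = 0.0251). Rpl13a fell from 9.60 and 9.80 to 8.98 and 9.13, by -0.64 ± 0.16 (adjusted p = 0.0365), its other probe differed by -0.81, and the call held in 9 of 21 alternatives. For both genes the wild-type 3 h arrays were also below wild-type controls, with -0.37 ± 0.17 for Rpl31 and -0.40 ± 0.16 for Rpl13a, neither past the test (adjusted p = 0.434 and 0.377).

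Rps15a, a small subunit protein, fell from 6.76 and 7.12 in knockout controls to 6.35 and 5.28, by -1.13 ± 0.30 (SE; adjusted p = 0.0458). It was detected on both knockout control arrays and on 1 of the 2 arrays at 3 h. In wild type it was not detected in controls, at 5.78 and 5.89, so the knockout controls were at least 1.65-fold higher (adjusted p = 0.0909), short of the threshold. Without replicate 2 of the knockout 3 h group the difference was -0.59 and the call was lost (adjusted p = 0.118), and the call held in 4 of 21 alternatives run.

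**Figure D3:**
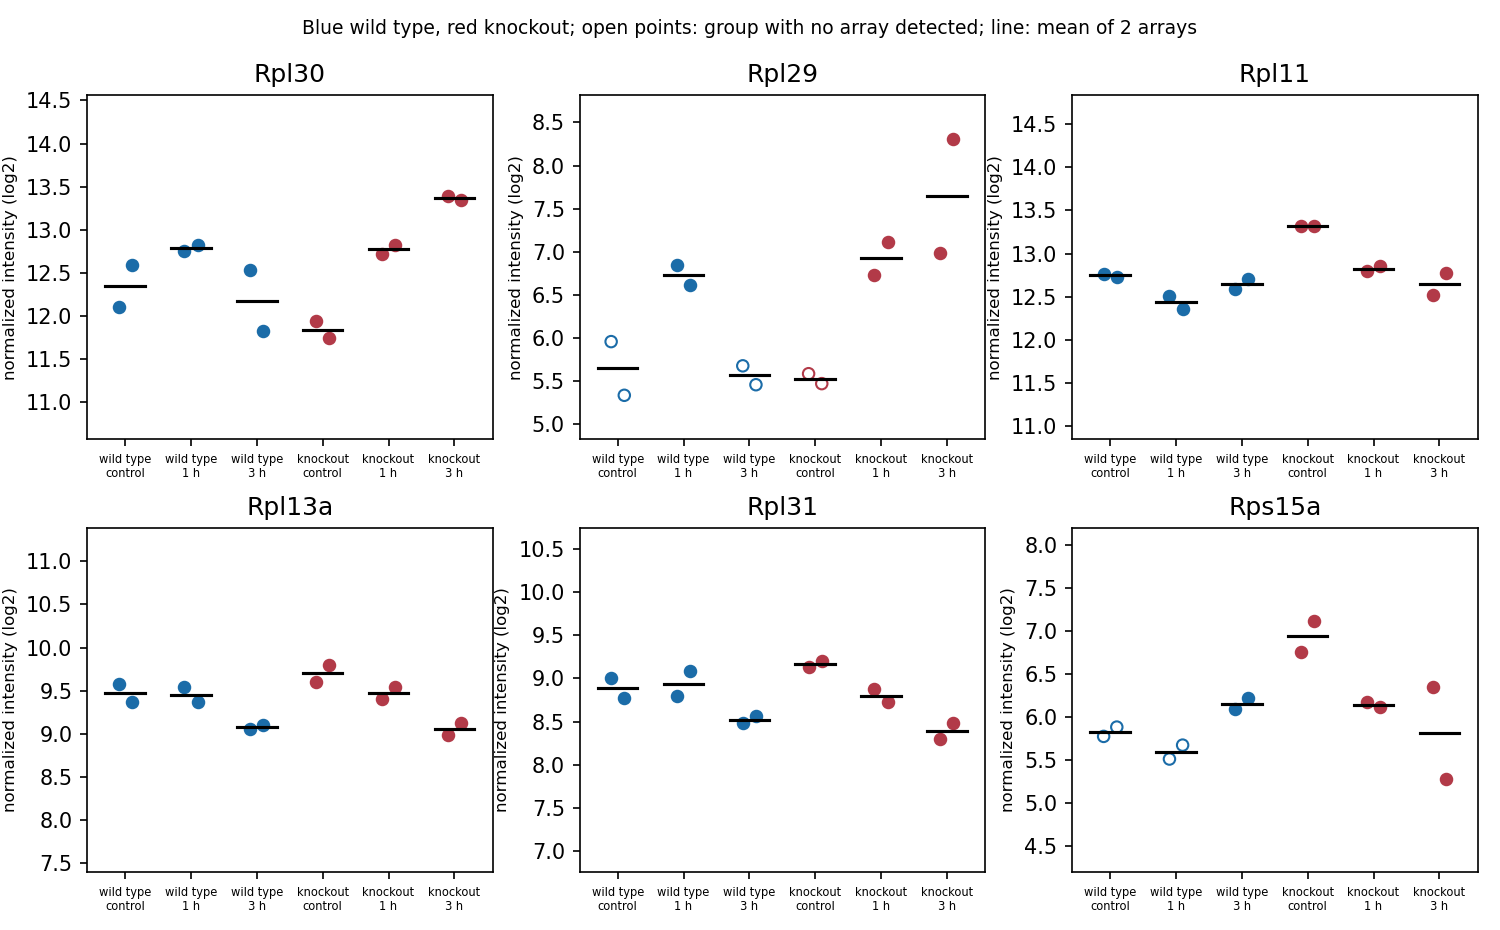
Log2 normalized intensity of the 6 ribosomal protein genes that passed the test in knockout at 3 h against control, each array a point, with lines at the mean of the 2 arrays of a group and open points where neither array was detected. Each panel spans 4 log2 units. Rpl30 and Rpl29 have their highest mean in knockout at 3 h, and Rpl11, Rpl13a, Rpl31 and Rps15a have theirs in knockout controls.

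Median centring in place of quantile normalization moved the knockout 3 h comparison as a whole. It put the median of all features at -0.25 and that of the ribosomal protein genes at -0.45, with 7 of 72 positive. The genes then lay below all features, whereas under quantile normalization their median of 0.00 lay above the -0.11 of all features, so no direction is given for the family at 3 h in knockout. Rpl29 and Rpl11 passed under both scalings.

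Related lists were also called at 3 h in knockout. Mitochondrial ribosomal proteins, 71 measured, had 1 gene higher and 11 lower with a median of -0.37, and among them, named after their values were seen, Mrps10 differed by 1.53 ± 0.26 and Mrpl42 by -0.95 ± 0.16 (SE). Of 26 biogenesis genes, Nob1 and Tsr1, which mature the small subunit, rose, and Bop1, of the large subunit pathway, and Polr1a, the largest subunit of RNA polymerase I, fell. Of the 15 oligopyrimidine-tract messages, the elongation factor subunit Eef1b2 rose by 0.83 ± 0.21 (adjusted p = 0.0363). These counts stand beside 10.6% of all features, with 472 of 11766 higher and 771 lower. The median over all features was -0.11, against -0.21 for the biogenesis genes and 0.32 for the oligopyrimidine-tract messages. Differences between the lists and all features were not tested.

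Without stress, the median difference between the genotypes was 0.03 over the family, with 40 of 72 genes higher in knockout, and 0.01 over all features. No gene passed the test, beside 2.30% of all features (271 features, or 444 with the replicate block). At an unadjusted p under 0.05, 9 were higher and 0 lower, against 1041 and 1181 of all 11766 features. The 9 included Rps15a, Rpl11 and Rpl14, a large subunit protein not detected in wild-type controls and at least 1.58-fold higher in knockout controls (adjusted p = 0.0880). The largest positive fitted difference was that of Rpl22l1 at 1.33 ± 0.80, and the most negative was that of Rpl30 at -0.51 ± 0.25, followed by Rps15 and Rpl37a at -0.35 and -0.32. A second, dimmer Rpl30 probe had the opposite sign, at 0.83 ± 0.58 (SE). By the probes used, all genes called in knockout at 3 h against control had fitted differences of opposite sign here. Beside Rpl30, Rpl11 and Rps15a, these were Rpl31, Rpl13a and Rpl29. Mean levels in wild-type and knockout controls were 8.89 and 9.17 for Rpl31 and 9.47 and 9.70 for Rpl13a. Rpl29 was not detected in either, at 5.64 and 5.52. The comparisons share the knockout control arrays.

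At 3 h the genotype difference had a median of 0.02, with 42 of 72 positive, against -0.09 over all features, while under median centring both medians were -0.51. The interaction at 3 h had a median of -0.02 (-0.59 under median centring, where all features had -0.36). It called 0 genes in limma, beside 0.170% of all features (20 features, or 50 with the replicate block). At an unadjusted p under 0.05, 2 were positive and 3 negative, against 888 and 1223 of all 11766 features. Rpl30 came nearest, at 1.70 ± 0.35 (SE; adjusted p = 0.0764), ahead of Rpl29 at 2.20 ± 0.55, which did not pass either. By a second, dimmer Rpl30 probe the difference at 3 h from control was 0.49 ± 0.58 in knockout and 1.22 ± 0.58 in wild type. The direction of the Rpl30 interaction thus depends on the probe. Averaged to 6 pools and fitted with genotype and treatment, the knockout effect had a median of 0.10, positive in 58 of 72 genes (-0.09 and 26 of 72 under median centring), and called none, beside 0.0510% of all features. There 2 genes were higher and 0 lower at an unadjusted p under 0.05, against 416 and 829 of all 11766 features. The 2 genes were Rpl22l1 at 0.85 ± 0.22 and Rpl14 at 0.56 ± 0.20.

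**Figure D4:**
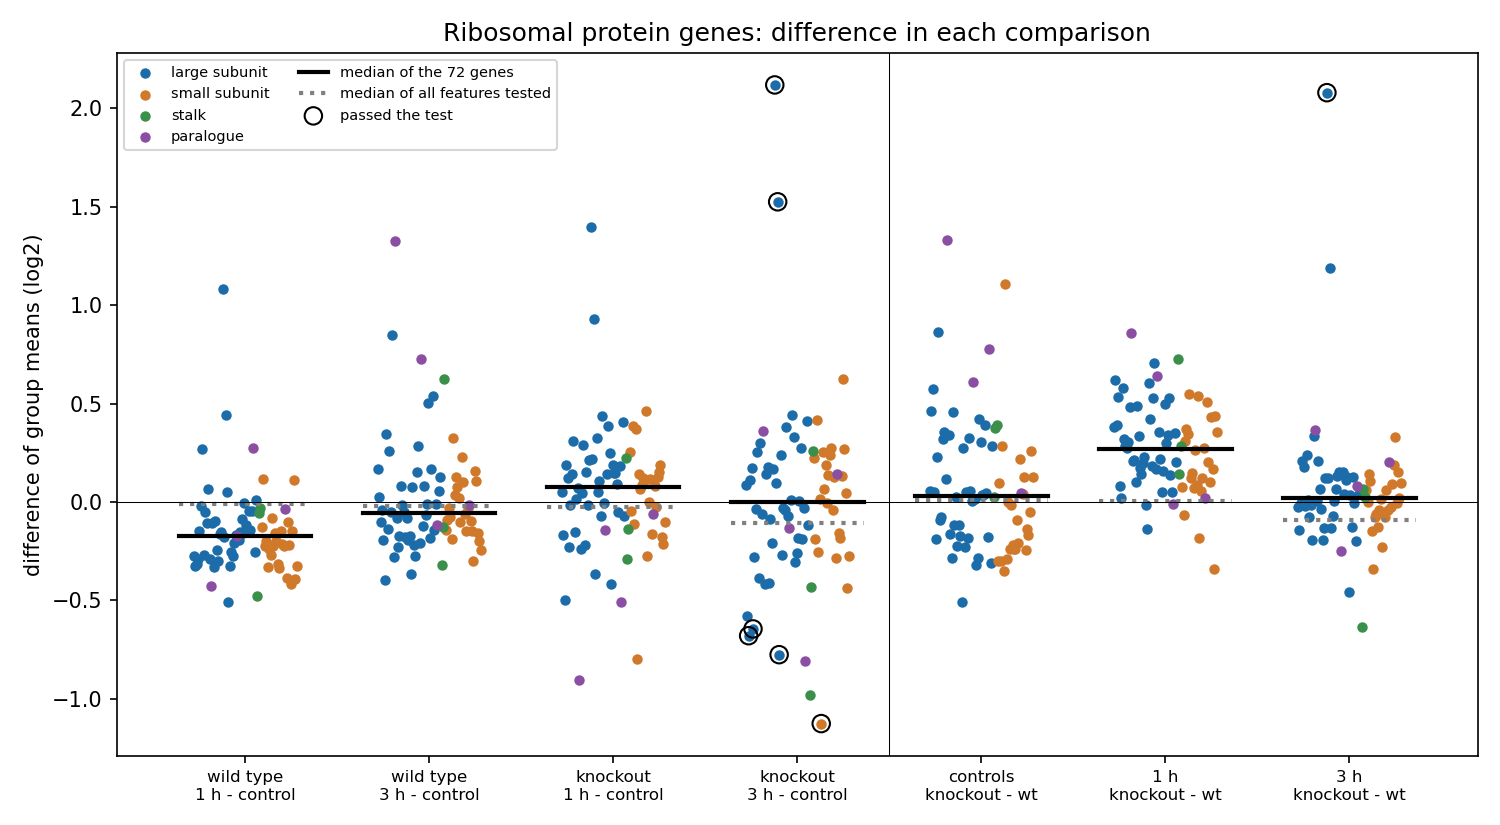
Log2 difference of group means for each of the 72 ribosomal protein genes (points, coloured by subunit) in 7 comparisons, with black lines at their median, dotted lines at the median of all features tested and rings around genes that passed the test. The points lie mostly below 0 in wild type at 1 h (median -0.17) and mostly above 0 for knockout against wild type at 1 h (median 0.27), and all rings lie in the knockout 3 h comparisons.

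The 3 stalk proteins did not share a pattern. Rplp1 read 14.40 and 14.24 in knockout controls, above its 13.79 to 14.04 on the other 10 arrays, and its duplicates lay at most 0.15 apart. Its difference between the genotypes in controls was 0.37 ± 0.14 (SE; adjusted p = 0.184), and its difference in knockout at 3 h was -0.43 ± 0.14 (SE; adjusted p = 0.0765). Rplp0 measured 7.29 and 7.23 in knockout controls and 6.85 and 5.71 at 3 h, a difference of -0.98 ± 0.38 (adjusted p = 0.130). Rplp2 differed by 0.26 in that comparison. Duplicates of Rplp0 and Rplp2 lay up to 1.14 and 1.24 apart. The group differences of Rplp2, and those of Rplp0 at 3 h, are thus within the spread of single arrays. At 1 h Rplp0 read 6.76 and 6.75 in wild type and 7.46 and 7.50 in knockout, without overlap and without passing the test.

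The paralogues were dimmer or less stable than the family as a whole. Rpl22l1, which takes over from Rpl22 in mice that lack it, had duplicates up to 2.14 apart and passed no test. Rpl22 itself stayed between 9.61 and 10.27 on all arrays, with differences of -0.29 and 0.48 in wild type at 1 h and between knockout and wild type at 1 h. Rpl7l1 measured 7.89 and 8.14 in knockout controls, 7.53 and 7.49 at 1 h and 7.47 and 6.95 at 3 h. Its difference at 3 h, -0.81 ± 0.22 (adjusted p = 0.0507), just missed the threshold, while its parent Rpl7 differed by -0.19. Rpl36al was detected on 4 of 12 arrays and its parent Rpl36a on all 12, and Rpl36a differed by -0.07 in knockout at 3 h. Rps27l, a p53 target, stayed between 10.99 and 11.33, with differences from -0.06 to 0.20 between groups, and its parent Rps27 differed by -0.28 in knockout at 3 h.

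Several proteins with known extra roles passed no test. Rps3, at the entry of the messenger RNA channel, lay between 12.50 and 12.91 on all arrays, Rpl5 between 12.57 and 13.25, and Rpl24, mutated in the Belly spot and tail mouse, between 13.27 and 13.90. Rpl3, Rpl10 and Rps4x, parents of paralogues that were not detected or had no matching probe, differed by -0.18, -0.27 and -0.15 in wild type at 1 h. None of these 6 genes passed a test, with a smallest adjusted p of 0.310.

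Where a gene had several detected probes, as 18 genes did, they were compared for sign. The chosen and a second probe had opposite signs in 68 of 126 pairs of gene and comparison, but in 0 pairs were both past an unadjusted p of 0.05 in limma. Ribosomal protein genes have many processed pseudogenes of near-identical sequence, so a probe may also bind their transcripts, and this was not tested here.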

How the data were processed

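Pituitary RNA was measured on 12 Illumina bead arrays. The deposited files hold raw probe intensity, neither background-subtracted nor normalized, and a detection p-value which the authors made with BeadStudio, per the submitters' processing notes and the file headers. The authors' second table of intensity values, already background-subtracted, served as an alternative, with negative values set to 0 before log2(value + 16). Tests leave out 14 probes that this table does not hold.

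Raw intensities were corrected with normexp of limma 3.58.1 in R 4.3.3 (background from detection p-values, offset 16), quantile normalized and put on the log2 scale. Of 46147 probes, 14405 passed detection. Gene names came from the platform's probe table. Comparisons were fitted with lmFit and eBayes on all 12 arrays with 1 term per group, or on 6 pool means with genotype and treatment. Adjusted p-values are Benjamini-Hochberg over all 11766 features. A feature was called at an adjusted p under 0.05 and 1.5-fold. Errors are limma standard errors. The number of arrays limits the precision. "At least N-fold" sets the brighter group's mean against, per array of the undetected group, the higher of its own signal and the lowest detected signal. The fit was tested on simulated data.

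The genes and lists were chosen with earlier results of these data known. Genes named in the text are those called in a comparison, a written list of stalk, regulatory and paralogous proteins with their parents, and the 3 largest positive and negative differences of the 4 stress comparisons and of the genotypes in controls. Deviations from group means correlated between same-numbered arrays at -0.16 to 0.47 over 15 pairs of groups, with 9 over 0.1. Since the number is also the slide, per the file headers, a fit with it as a block was run, and its counts are given where they differ by over 1.5 times. RefSeq promoter windows are of GRCm38.p6. The other alternatives were the offset, the scaling, the detection filter, the probe rule, array weights, the arrays fitted, the fold limit and leaving out each array. A marker list of 1 further cell type is not reported here.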

Additional observations from a re-analysis of the deposited data

Results flagged for a closer look

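The median difference of the 72 ribosomal protein genes from control had opposite signs in the genotypes at both times. At 1 h it was -0.170 in wild type and 0.0772 in knockout on the log2 scale, and at 3 h it was -0.0546 in wild type and 0.00120 in knockout. The knockout value at 3 h is near 0, with 36 genes positive and 36 negative, so its sign gives no direction. The opposite signs of the list medians were not tested as such. For single genes the interaction called 0 of 72 at 1 h and 0 of 72 at 3 h in limma. Under median centring the knockout median at 1 h was -0.00529, and at 3 h the medians were 0.0290 in wild type and -0.445 in knockout, so these signs depend on the scaling.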

How the results depend on the processing

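The lower median in wild type at 1 h (-0.19 to -0.15) and the higher median of knockout over wild type at 1 h (0.21 to 0.29) kept their direction in all 18 alternatives that give a median. Median centring moved the median over all features by over 0.1 to -0.25 in knockout at 3 h, -0.14 between the genotypes in controls, -0.51 between them at 3 h, -0.36 in the interaction at 3 h and -0.23 over pools. With it the medians of the family were 0.0290 for wild type 3 h, -0.00529 for knockout 1 h, -0.45 for knockout 3 h, -0.51 for knockout against wild type at 3 h, 0.18 for the interaction at 1 h, -0.59 for that at 3 h and -0.0902 over pools, and 2 genes were called in knockout at 3 h. The mean of all probes of a gene gave 0.19 for the interaction at 1 h. In knockout at 3 h, 0 genes were called when only the arrays compared were fitted, 1 with array weights, 7 with the replicate block and 0 to 7 when 1 array was left out. Rpl29 between the genotypes at 3 h gave a count of 0 without the detection filter, in the authors' table, with only the arrays compared and with weights, and the count was 2 at an offset of 50 and 0 to 5 with 1 array left out. Array weights called 3 genes between the genotypes in controls and 1 in knockout at 1 h, where leaving out arrays gave 0 to 3 and 0 to 1. An offset of 50 called 1 gene in the interaction at 3 h, and leaving out arrays gave 0 to 4. With 1 array left out, medians ran from -0.0884 to 0.0207 for wild type 3 h, -0.0468 to 0.0714 for knockout 3 h, -0.0372 to 0.0420 for the genotypes in controls and -0.0893 to 0.0838 for the interaction at 3 h. A lone array left in a group was assumed to vary like the other groups. The causes were not tested. The replicate block, with the slide as a term, moved no other count of ribosomal protein genes, but raised the calls over all features from 93 to 219 between the genotypes at 1 h, from 271 to 444 in controls and from 20 to 50 in the interaction at 3 h. In knockout at 3 h, Rps15a was past the threshold in 4 of 21 alternatives, Rpl13a in 9, Rpl30 in 15, Rpl11 and Rpl31 in 16 and Rpl29 in 18.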
